A study of Mus musculus with 6 samples.

Results

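The 7 complex I genes carried by mouse mitochondrial DNA, mt-Nd1, mt-Nd2, mt-Nd3, mt-Nd4, mt-Nd4l, mt-Nd5 and mt-Nd6, were followed in astrocytes of mice given quinpirole. They were chosen by name, as the rows whose Ensembl identifier maps to these symbols, and all 7 had a row among the 17193 genes of each table. All 7 were higher in every quinpirole library than in every control library, as were 20.0% of the tested genes. Among other abundant genes, taken as those averaging at least 100 FPKM, 353 of 658 were separated in this way. The test was passed by 6 of the 7, where 5.74% of the tested genes and 24.5% of those abundant genes were called higher. That count of 6 depended on the libraries, falling to 0 of 7 in 4 of the 6 fits that omitted a library.

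Brain astrocytes had been isolated from wild-type C57BL/6 mice aged 3 months with microbeads against ACSA-2, a surface antigen of astrocytes encoded by Atp1b2, and their mRNA was sequenced in 6 libraries. The control group, labelled Mock, and the group given quinpirole, an agonist of the dopamine receptor DRD2, had 3 libraries each. The question of the design was which transcripts differ in astrocytes once this receptor has been stimulated. The sources used here do not give the dose and duration of quinpirole for these mice, what the Mock mice received, their sex, or whether mice were pooled. No source ties the libraries to separate animals, so the p-values below measure only the spread between these libraries.

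Complex I, or NADH dehydrogenase, takes electrons from NADH, passes them to ubiquinone and pumps protons across the inner mitochondrial membrane. Its membrane arm is built around subunits encoded in mitochondrial DNA, whereas the peripheral arm, with the flavin and the iron-sulfur clusters, and all accessory subunits are encoded in the nucleus. Mitochondrial DNA is transcribed into long precursors of either strand by the polymerase POLRMT, and the precursors are cut, largely at the tRNAs, into mRNAs that gain a short poly(A) tail in the organelle. Astrocytes rely strongly on glycolysis but keep a working respiratory chain, in which complex I is also a source of reactive oxygen species.

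On GRCm38 the 7 genes lay on chromosome M, as single-exon protein-coding genes in the GENCODE M21 annotation. All but mt-Nd6 were on the plus strand, from mt-Nd1 at 2751 to 3707 and mt-Nd2 at 3914 to 4951, through mt-Nd3 at 9459 to 9806, mt-Nd4l at 9877 to 10173 and mt-Nd4 at 10167 to 11544, to mt-Nd5 at 11742 to 13565. The minus strand held mt-Nd6, at 13552 to 14070, and it is the only mitochondrial protein gene on that strand. The exonic lengths ran from 297 nucleotides for mt-Nd4l to 1824 for mt-Nd5.

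The members are packed so closely that 2 pairs share bases. This matters for reading their values because a fragment over such bases matches the position of both genes. In the first pair, mt-Nd4l and mt-Nd4 lie on the same strand and are known to be kept as 1 mRNA with 2 reading frames. Their overlap of 7 bases, at 10167 to 10173, is in capitals in the end of mt-Nd4l (chrM:10144-10173) and the start of mt-Nd4 (chrM:10167-10196).
mt-Nd4l end: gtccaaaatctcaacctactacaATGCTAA
mt-Nd4 start: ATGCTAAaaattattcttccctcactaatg
The capitals hold the ATG that opens mt-Nd4 and the TAA that closes mt-Nd4l. The second pair, mt-Nd5 and mt-Nd6, meets tail to tail on opposite strands, with 14 shared bases at 13552 to 13565. They are in capitals in the last 30 bases of each gene, written in the direction of its own mRNA, chrM:13536-13565 on the plus strand and chrM:13552-13581 on the minus strand.
mt-Nd5 end: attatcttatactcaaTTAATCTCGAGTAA
mt-Nd6 end: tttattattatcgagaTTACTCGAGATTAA
Whether the libraries or the counting kept strand is not given in the sources used here. Fragments of mt-Nd5 and of mt-Nd6 therefore cannot be told apart where the genes, or RNA running on from either, overlap. That stretch can be longer than the 14 bases, and its part in the values of mt-Nd6 was not tested.

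Copies of mitochondrial DNA in the nuclear genome bear on the same values. A stretch of chromosome 1 carries annotated pseudogenes of 3 members in a row, and its copy of mt-Nd3, Gm28438, is shown because it covers nearly the whole gene. The first 30 bases of mt-Nd3 (chrM:9459-9488, plus strand) and of Gm28438 (chr1:24613090-24613119, minus strand) are given with the identical run in capitals.
mt-Nd3 start: attAACCTGTACACTGTTATCTTCATTAAT
Gm28438 start: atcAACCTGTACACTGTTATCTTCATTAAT
From base 4 the copy ran for 342 bases with 0 differences. Gm10222 matched the first 294 of the 297 bases of mt-Nd4l, and Gm28439 matched the first 876 of the 1378 bases of mt-Nd4, both with 0 differences. Counted in words of 50 bases, 98.0% of mt-Nd3, 98.8% of mt-Nd4l and 62.2% of mt-Nd4 also occurred in another annotated gene. The share was 8.19% for mt-Nd2, 7.61% for mt-Nd5 and 0% for mt-Nd1 and mt-Nd6. Only annotated transcripts were searched, so copies in unannotated stretches of the nuclear genome would be missed. The 3 chromosome 1 copies were not analysed here, and how the authors assigned fragments with more than 1 matching position is not given in the sources used here.

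The values were FPKM, numbers of sequenced fragments scaled to transcript length and to the depth of the library. Levels of different genes can be set beside each other per length, with a limit where fragments match copies elsewhere, whose assignment is not given. From the steps of the lowest values, the libraries were estimated to hold 22340000 to 27460000 fragments. The 10 astrocyte markers were above 1 FPKM in every library and summed to 1821 to 2008 FPKM in Mock and 1828 to 1854 after quinpirole, with 0 called higher and 2 called lower. One of the 2 was Atp1b2, the gene of the antigen used for isolation, with means of 178 and 156 FPKM (limma adjusted p 0.0382). The other was Slc1a2, with 8.10 and 5.82 FPKM (limma adjusted p 0.0297). Of the 10, 3 had a higher mean after quinpirole. The lists of the other cells were mixed. Microglial markers summed to 501 to 518 in Mock and 531 to 569 after quinpirole (1 of 8 called higher), and mural markers, nearly all of it Acta2, to 2546 to 2715 and 2731 to 2902 (1 of 4 called lower). Neuronal markers summed to 54.5 to 57.6 and 63.5 to 68.6, of which Stmn2 was the only one above 1 FPKM and was called higher, while Snap25, Rbfox3, Syt1, Nefl, Gad1 and Slc17a7 were below 1 in every library. Endothelial markers, 7.70 to 8.07 and 6.23 to 7.21, and oligodendrocyte precursor markers, 2.24 to 2.92 and 1.84 to 2.05, were lower after quinpirole. Oligodendrocyte and ependymal sums overlapped between the groups, at 156 to 176 against 163 to 173 and at 137 to 152 against 138 to 146. The part of these shifts in the results below was not tested.

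Added up, the 7 members stood at 4754, 5029 and 5087 FPKM in Mock libraries 1, 2 and 3. After quinpirole the sums were 6020.3, 6100.7 and 6157 FPKM in libraries 1, 2 and 3. The lowest quinpirole library was therefore well above the highest Mock library. The FPKM of all genes also summed higher, to 401769 to 413730 in Mock and 425244 to 437164 after quinpirole. The rises in FPKM given below include that difference. On a TPM scale, which sets these sums equal, the median log2 fold change of the members was 0.19. As a share of all FPKM in a library the members took 1.18%, 1.25% and 1.23% in Mock and 1.41%, 1.40% and 1.45% after quinpirole. In bulk RNA, a larger share of cells rich in these transcripts and more of them per cell cannot be told apart.

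Of the 7 members, 6 were called higher after quinpirole (limma on log2(FPKM + 1), Benjamini-Hochberg adjusted p under 0.05) and 0 lower, where 10.9% of the 12255 tested genes were called in either direction, 5.74% of them higher and 5.18% lower. The median log2 fold change was 0.27 for the members and 0.015 for all tested genes. In all 7, every quinpirole library was above every Mock library, as was the case for 20.0% of the tested genes, while 16.9% lay below in every library and 36.9% were separated in either direction. Such a separation upwards was more common among other abundant genes, at 353 of 658 averaging at least 100 FPKM. The count of called members fell to 0 of 7 when Mock 1, Mock 2, Quinpirole 1 or Quinpirole 2 was omitted, with adjusted p of 0.0556 to 0.130 for the members and an unadjusted p under 0.05 for 7 of 7 each time, and it was 2 without Quinpirole 3 and 7 without Mock 3. It was 3 on a TPM scale, with scaling to the other genes, without a filter on low values or after a correction for transcript length, and 2 after quantile normalization, and the members' fold changes were above 0 in each of these fits.

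**Figure D1:**
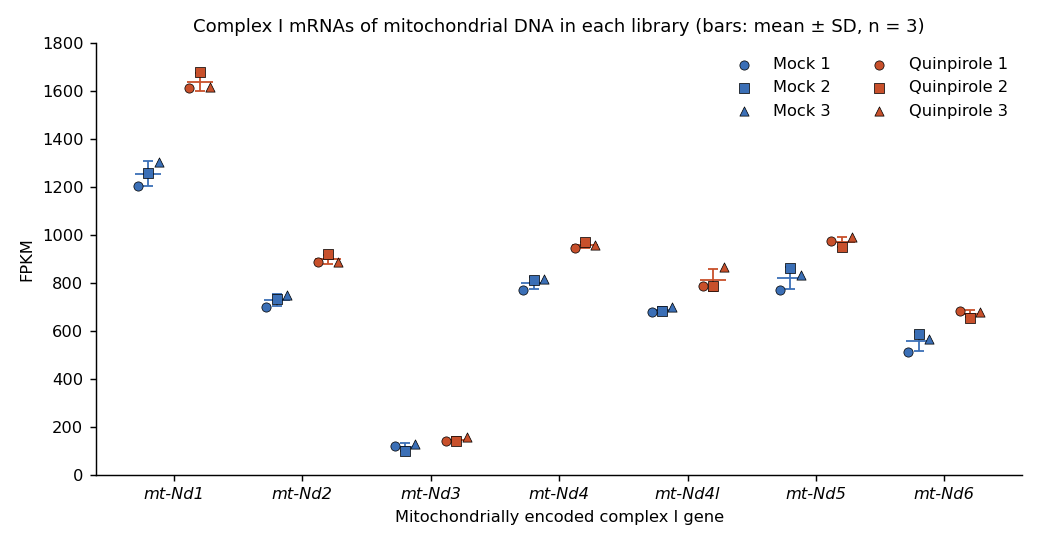
FPKM (vertical axis) of the 7 mitochondrially encoded complex I genes (horizontal axis) in the 3 Mock (blue) and 3 Quinpirole (orange) libraries, 1 point per library, with bars for the mean ± SD. For each gene the 3 Quinpirole points lie above the 3 Mock points, from mt-Nd3 at 97.2 to 157 FPKM up to mt-Nd1 at 1202 to 1679 FPKM.

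The first subunit by position, ND1, sits where the membrane arm meets the peripheral arm and lines the entrance for ubiquinone. Its mRNA, mt-Nd1, had the highest FPKM of the 7, at 1202, 1258 and 1305 in Mock 1 to 3 and 1609.8, 1679 and 1616 in Quinpirole 1 to 3. The groups were far apart, with Mock 1 the lowest and Quinpirole 2 the highest library. The mean rose from 1255 ± 51.3 to 1635 ± 38.1 FPKM (SD, n = 3 per group), a ratio of 1.30. The log2 fold change was 0.38 with a standard error of 0.045 and a limma adjusted p of 0.0225.

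ND2, ND4 and ND5 are the antiporter-like subunits, large membrane proteins that each form a proton channel. For mt-Nd2, at the inner end of the arm, the Mock libraries held 699.5, 733 and 748 FPKM and the quinpirole libraries 886, 920.4 and 887 FPKM. Within both groups the libraries stood in the same order as for mt-Nd1, with Mock 1 lowest and Quinpirole 2 highest. Its group means were 727 ± 24.7 and 898 ± 19.3 FPKM, and it rose by 0.31 on the log2 scale (standard error 0.041, limma adjusted p 0.0225).

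mt-Nd4, the middle antiporter-like subunit, had 769, 809.8 and 814 FPKM in Mock and 947, 971 and 959 FPKM after quinpirole. It was the tightest of the members after quinpirole, with a coefficient of variation of 1.25%, and Mock 1 was again the lowest library. Means of 798 ± 24.7 in Mock and 959 ± 12.03 FPKM after quinpirole gave a rise of 0.27 on the log2 scale (standard error 0.039, limma adjusted p 0.0225).

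mt-Nd5, for the subunit at the far tip of the arm, had 772, 862 and 831 FPKM in Mock and 972, 947 and 989.9 FPKM after quinpirole. Here Mock 2 was the highest control and Quinpirole 2 the lowest treated library, unlike in mt-Nd1, mt-Nd2 and mt-Nd4, so the gap between the groups was narrower, from 862 to 947 FPKM. Against a Mock mean of 822 ± 45.9 FPKM, the treated mean was 969.8 ± 21.4 FPKM, a rise of 0.24 on the log2 scale (standard error 0.050, limma adjusted p 0.0322).

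ND3, ND4L and ND6 are small subunits beside ND1, in the part of the membrane arm that changes shape between the active and the resting enzyme. mt-Nd3 had the lowest FPKM of the members, with 120.5, 97.2 and 127 in Mock and 140.0, 143 and 157 after quinpirole. The groups did not overlap, but Mock 2 was 21.4% below the mean of the other two controls. The mean was 115 ± 15.6 FPKM in Mock and 147 ± 9.30 FPKM after quinpirole, and the log2 fold change of 0.36, larger than that of 5 of the 6 called members, had a standard error of 0.098 and a limma adjusted p of 0.0572. Without Mock 3 the adjusted p was 0.0450 and without any other library it was not below 0.05.

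mt-Nd4l had 677, 681 and 699 FPKM in Mock, the closest agreement among controls of any member (coefficient of variation 1.66%). After quinpirole it had 785, 788 and 866 FPKM, with Quinpirole 3 standing 10.2% above the mean of the other two. The group means of 686 ± 11.4 and 813 ± 46.2 FPKM were 0.24 apart on the log2 scale (standard error 0.048, limma adjusted p 0.0291). Its partner on the same mRNA, mt-Nd4, had Quinpirole 2 as its highest library.

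mt-Nd6, the member on the opposite strand, had 513, 588 and 565 FPKM in Mock and 680.4, 653 and 680.1 FPKM after quinpirole. Its libraries repeated the order seen in the neighbouring mt-Nd5 within Mock, with Mock 1 lowest and Mock 2 highest, and Quinpirole 2 was the lowest treated library for both. Whether RNA running on from mt-Nd5 was counted for mt-Nd6 is not known, and its part in this order was not tested. It averaged 555 ± 38.2 FPKM in Mock and 671 ± 15.7 FPKM after quinpirole, which is a rise of 0.27 on the log2 scale (standard error 0.055, limma adjusted p 0.0299). In human cells the ND6 mRNA is known to lack a regular poly(A) tail, and these libraries were made from RNA bound to poly-T beads.

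By mean level in Mock the order was mt-Nd1, mt-Nd5, mt-Nd4, mt-Nd2, mt-Nd4l, mt-Nd6 and mt-Nd3, and the highest stood 10.9 times above the lowest in Mock and 11.1 times after quinpirole. Only mt-Nd5 and mt-Nd4 were neighbours whose libraries overlapped, with mt-Nd5 higher in 5 of 6 libraries. The other 5 neighbouring pairs were separated in both groups and kept their order in 6 of 6 libraries. mt-Nd4l and mt-Nd4, which share 1 mRNA, were thus listed at different levels per length, 686 ± 11.4 and 798 ± 24.7 FPKM in Mock.

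Counting error was smaller than the spread between libraries in both groups for each member, by a wide margin for some and a narrow one for others. With the estimated depths, mt-Nd5 rested on 37000 to 47300 fragments per library, for a counting error of 0.460% to 0.520%, and mt-Nd1 on 30200 to 41100 fragments. mt-Nd3 rested on 929 to 1300 fragments, with a counting error of 2.77% to 3.28%, against a coefficient of variation of 13.6% among the Mock libraries. For mt-Nd6, with 7000 to 9420 fragments, the counting error was 1.03% to 1.20% and the coefficient of variation in Mock 6.88%. For mt-Nd4l, with 5240 to 6220 fragments, the counting error of 1.27% to 1.38% was close to the coefficient of variation of 1.66% in Mock, against 5.68% after quinpirole. These errors cover counting only and not the amplification of fragments.

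The libraries did not stand in 1 order for all members. Mock 1 was the lowest control for 6 of the 7, by 6.18% below the mean of the other two for mt-Nd1 and by 5.25% for mt-Nd4, and mt-Nd3 was the exception, with Mock 1 7.58% above the mean of the other two. Along the genome mt-Nd3 ended a run of genes in which Mock 2 was the lowest control and which began with mt-Co2 and went on through mt-Atp8, mt-Atp6 and mt-Co3. In that run Mock 2 lay 16.7%, 13.6%, 18.3% and 13% below the mean of the other two controls for mt-Co2, mt-Atp8, mt-Atp6 and mt-Co3. The next member, mt-Nd4l, began 70 bases further on and shared no such dip, with Mock 2 only 1.08% below the mean of the other two. In the run mt-Co2, mt-Atp6, mt-Co3 and mt-Nd3 had 98.0% to 100% of their 50-base words in common with another annotated gene, and mt-Atp8 had 0%, while mt-Nd4l, outside it, had 98.8%. The 0% does not show that mt-Atp8 lacks a nuclear copy, because only annotated transcripts were searched. On chromosome 1 the copies of mt-Atp6 and mt-Co2 lie at 24613974 to 24614651 and 24614885 to 24615565. The unannotated bases between them, where mt-Atp8 would fall in that order, were not searched. The part of these copies in the pattern was not tested.

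**Figure D2:**
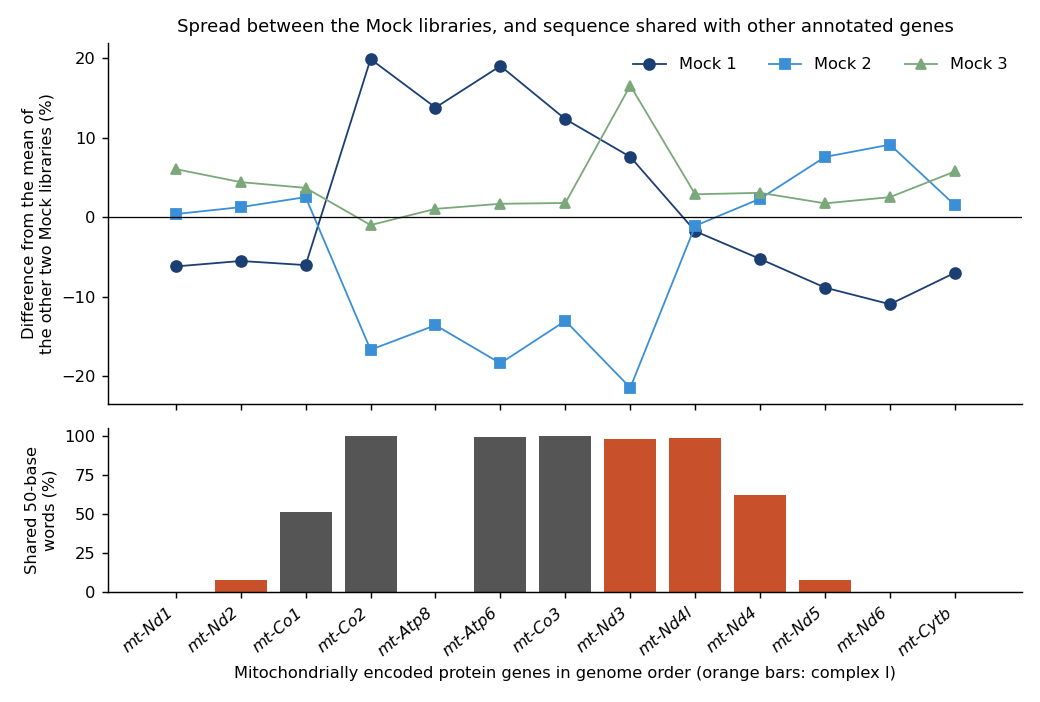
Upper panel, difference of each Mock library from the mean of the other two (vertical axis, percent) for the 13 mitochondrial protein genes in genome order, with lines only to guide the eye. Lower panel, percent of each gene's 50-base words found in another annotated gene, with complex I genes in orange and no bar where the share is 0%. Mock 2 falls to between 13% and 21.4% below the others from mt-Co2 to mt-Nd3 and is within 10 percent of them elsewhere.

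The 6 other mitochondrial protein genes, for cytochrome b and subunits of cytochrome c oxidase and ATP synthase, gave the comparison within the same genome. Of these, 3 were called higher and 0 lower, and their median log2 fold change of 0.27 was the same to 2 decimals as that of the complex I genes. mt-Cytb (0.29, limma adjusted p 0.0246), mt-Co1 (0.25, 0.0277) and mt-Atp6 (0.38, 0.0379) passed the test, and in fits that omitted a library mt-Cytb and mt-Co1 did so in 1 of 6, without Mock 3, and mt-Atp6 in 0 of 6 (adjusted p 0.0556 to 0.102). mt-Co3 (0.25, 0.0540), mt-Atp8 (0.31, 0.0913) and mt-Co2 (0.22, 0.156) did not, and mt-Co2 was the only mitochondrial gene listed here whose groups overlapped. The rRNA genes of mitochondrial DNA were not analysed here.

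**Figure D3:**
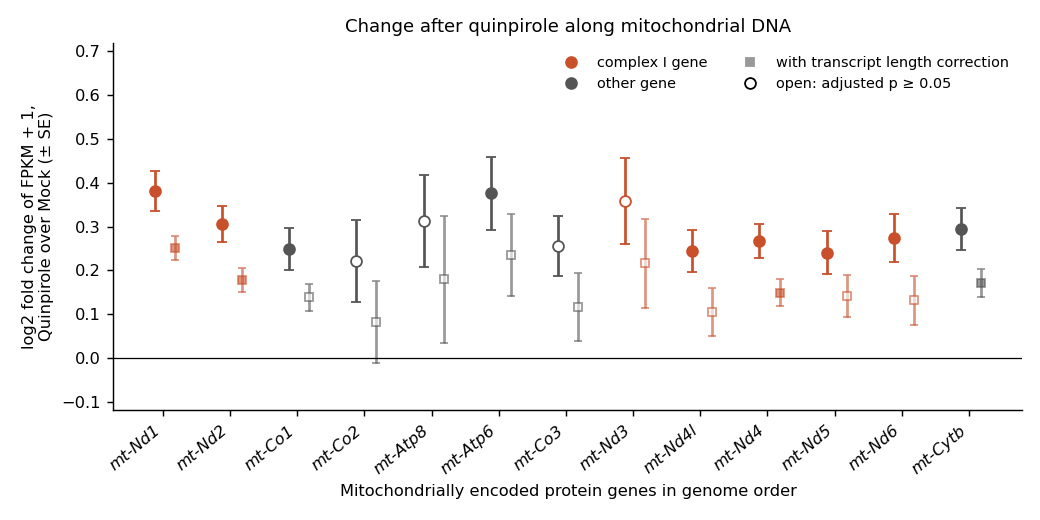
log2 fold change of FPKM + 1, Quinpirole over Mock, ± standard error (vertical axis), for the 13 mitochondrial protein genes in genome order, with complex I genes in orange, the others in grey, open symbols where the limma adjusted p is 0.05 or more, and small squares for the fit corrected for transcript length. All 13 circles lie above 0, between 0.22 for mt-Co2 and 0.38 for mt-Nd1, and each square lies below its circle.

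To see whether single members moved apart from the rest of the mitochondrial mRNAs, each was expressed as a percentage of the summed FPKM of the 13 genes, which no scaling of a library can alter. mt-Nd1 made up 8.68%, 9.15% and 9.15% of that sum in Mock and 9.60%, 9.86% and 9.61% after quinpirole. It was the only member whose shares did not overlap between the groups, with a mean difference of 0.695 percentage points and a two-sided exact permutation p of 0.1, the smallest that 3 libraries against 3 can give, so that no member could pass a threshold of 0.05. The other 6 members overlapped, as did all 6 of the other mitochondrial mRNAs, and the exact permutation p of those 12 ran from 0.4 to 1. mt-Nd6, for example, held 3.98 ± 0.286% in Mock and 3.98 ± 0.125% after quinpirole, and mt-Nd5 5.89 ± 0.353% and 5.75 ± 0.168%. The 7 together held 34.3%, 36.6% and 35.7% of the sum in Mock and 35.9%, 35.8% and 36.6% after quinpirole, so their joint share overlapped. With shares computed from estimated fragments in place of FPKM, mt-Nd2 was also separated, at 4.91% to 5.03% in Mock and 5.05% to 5.17% after quinpirole.

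The nuclear genes of the complex I core encode the parts that take up NADH and carry the electrons towards ND1, and 6 of them were compared. Of the 6, 0 were called in either direction by limma, whereas 2 had an unadjusted p under 0.05, and their median log2 fold change was 0.08. Ndufv2, which holds an iron-sulfur cluster beside the flavin, had the largest difference of the 6, from 38.4 ± 2.88 to 44.9 ± 2.52 FPKM (log2 fold change 0.22, standard error 0.065, limma adjusted p 0.0662). Ndufs3, Ndufs7, Ndufs8, Ndufv1 and Ndufs1 had log2 fold changes of 0.15, 0.07, 0.08, 0.08 and 0.08. All 6 means were higher in the deposited FPKM, and on a TPM scale their median log2 fold change was 0.00091, where that of the mitochondrial members was 0.19. The difference between these nuclear genes and the mitochondrial genes was not tested.

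Of 31 tested genes for mitochondrial transcription, RNA processing and replication, 1 was called higher and 0 lower, and 19 had a higher mean after quinpirole. The called gene was Mtpap, the mitochondrial poly(A) polymerase, which rose from 5.24 ± 0.170 to 6.22 ± 0.0907 FPKM (log2 fold change 0.21, standard error 0.053, limma adjusted p 0.0485). It was called in 0 of the 6 fits that omitted a library (adjusted p 0.0569 to 0.145), nor was it called without a filter on low values, on a TPM scale or with scaling to the other genes or to a common median ratio. Polrmt, the polymerase itself, was at 11.9 ± 0.612 FPKM in Mock and 10.2 ± 0.396 after quinpirole (-0.20, limma adjusted p 0.0569), a difference in the other direction from the mRNAs that it makes. On a TPM scale or with scaling to the other genes, Polrmt was the only gene of the list that was called, and it was lower (limma adjusted p 0.0334 and 0.0374), so the direction of the list's call turned with the scaling. Tfam, which packs mitochondrial DNA and starts transcription, had 5.65 ± 0.230 and 6.04 ± 0.436 FPKM (0.08, limma adjusted p 0.440). Lrpprc and Slirp, partners that keep mitochondrial mRNAs stable, had log2 fold changes of 0.01 and -0.06, with limma adjusted p of 0.878 and 0.869. Prorp, the nuclease that cuts tRNA ends, was not analysed here.

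**Figure D4:**
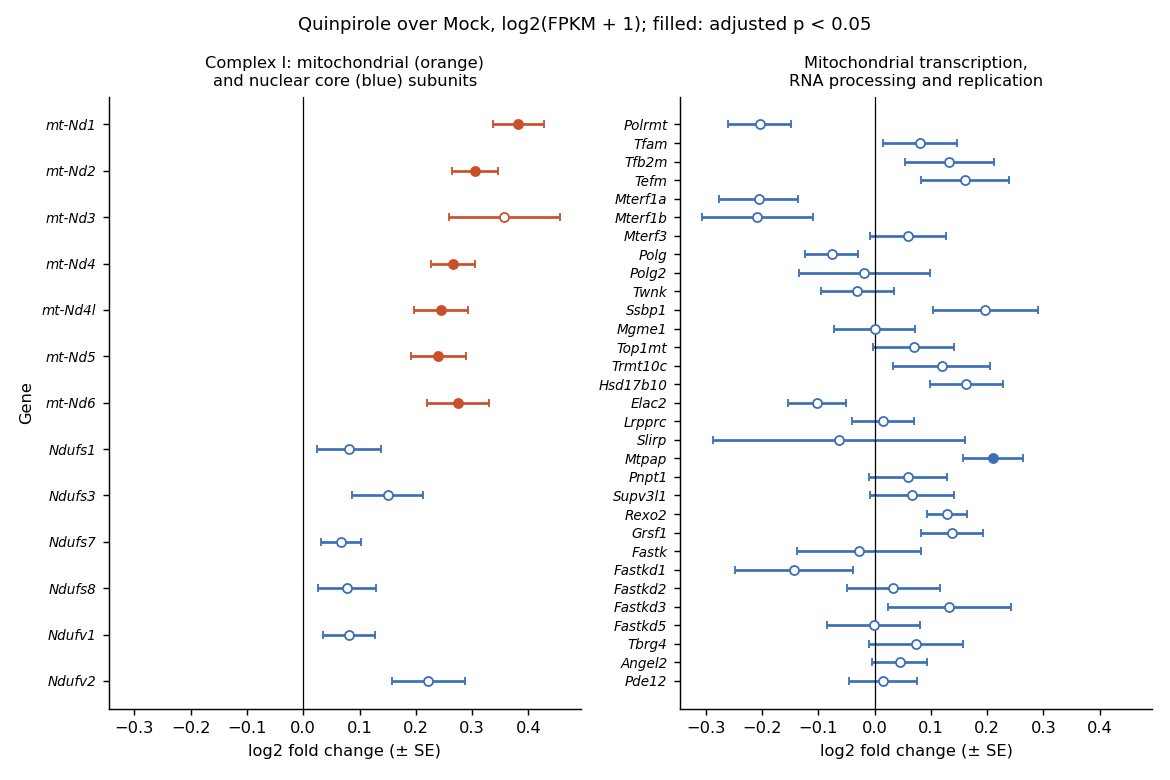
log2 fold change of FPKM + 1, Quinpirole over Mock, ± standard error (horizontal axes), for the complex I genes (left, mitochondrial in orange and 6 of the nuclear core in blue) and the 31 tested genes of mitochondrial transcription, RNA processing and replication (right), with filled points where the limma adjusted p is under 0.05. The 7 mitochondrial genes lie between 0.24 and 0.38 and the 6 nuclear genes between 0.07 and 0.22, and on the right Mtpap is the only filled point.

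Short and abundant transcripts tended to be higher after quinpirole across the whole table, which touches the members because they are both. Among 1322 other genes with an exonic length from 297 to 1824 nucleotides, the range of the members, the median log2 fold change was 0.13 and 14.5% were called higher, against 0.0016 and 4.60% among 10882 longer genes. Among 658 genes with a mean of at least 100 FPKM the median was 0.12 and 24.5% were called higher. Every quinpirole library was above every Mock library for 458 of the 1322 short genes and for 353 of these 658. Once the trend with length was removed from each library, the log2 fold changes were 0.25 for mt-Nd1, 0.18 for mt-Nd2 and 0.15 for mt-Nd4, with limma adjusted p of 0.0234, 0.0334 and 0.0472. They were 0.22 for mt-Nd3, 0.10 for mt-Nd4l, 0.14 for mt-Nd5 and 0.13 for mt-Nd6, with limma adjusted p of 0.233, 0.280, 0.123 and 0.194. A true change shared by short transcripts would be removed by this correction too.

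**Figure D5:**
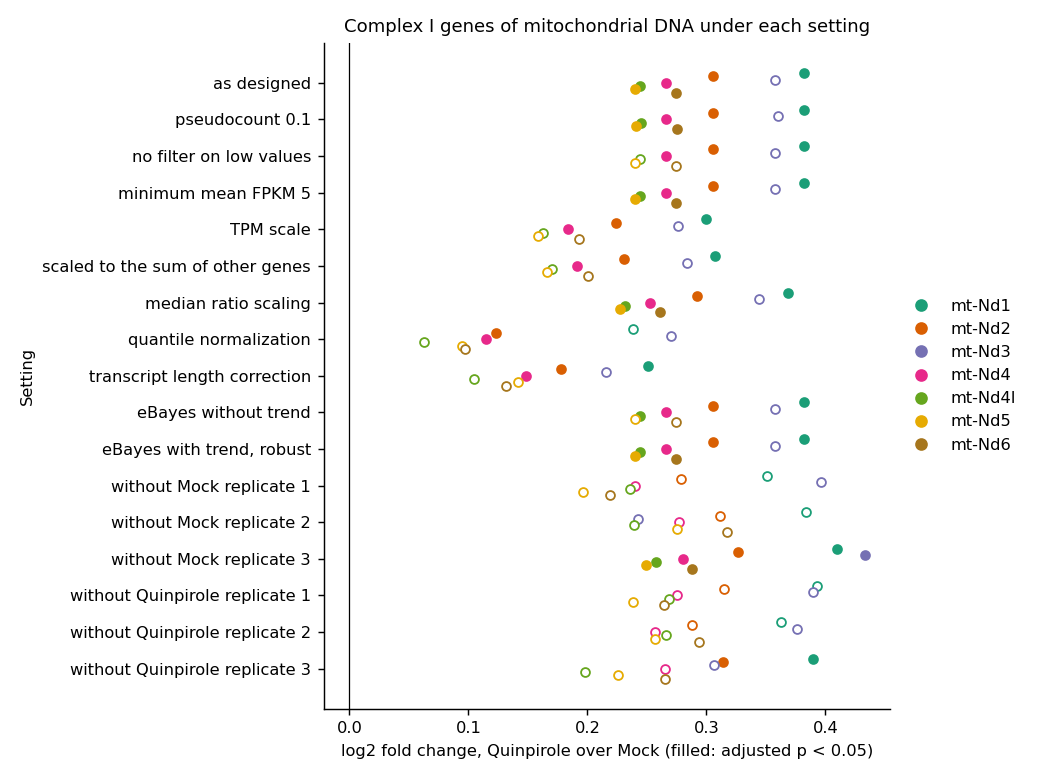
log2 fold change, Quinpirole over Mock (horizontal axis), of the 7 members (colours) under each processing setting without a replicate block (vertical axis), with filled points where the limma adjusted p is under 0.05. The fits with a replicate block, which called 0 of 7 members, are not drawn. All points lie to the right of 0, from 0.06 for mt-Nd4l with quantile normalization to 0.43 for mt-Nd3 without Mock 3, and in 4 of the 6 fits on 5 libraries no point is filled.

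The genes most like the members over the 6 libraries were sought by Pearson's r between log2(FPKM + 1) and the members' mean z-score, given as a description because the 6 points fall into the 2 groups. The members themselves, whose r is raised because each is part of the score, ranged from 0.827 for mt-Nd3 to 0.991 for mt-Nd4. Of the other mitochondrial genes mt-Cytb had 0.990 and mt-Co2 0.568. The 5 nuclear genes with the highest r were Rnf13, Capza2, Eif1b, Ndn and Apoo, from 0.995 down to 0.993. They were picked on a score that separates the groups, so their p-values and calls are not independent of that choice. Apoo, which encodes a protein of the complex that shapes the inner-membrane cristae, had 10.01, 10.4 and 11.2 FPKM in Mock and 19.0, 19.6 and 19.7 FPKM after quinpirole, a larger rise than that of any member (log2 fold change 0.83, limma adjusted p 0.00328), and it was called in 6 of 6 fits that omitted a library. Capza2, a subunit that caps actin filaments, and Eif1b, a translation initiation factor, rose by log2 fold changes of 0.21 and 0.22, with limma adjusted p of 0.0258 and 0.0240, each called in 1 of 6 such fits, the one without Mock 3.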

How the data were processed

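The authors made libraries from poly(A)-selected RNA with the NEBNext Ultra kit, sequenced both ends of each fragment, trimmed and filtered the reads, mapped them with TopHat2 (build GRCm38 per the submitters' processing notes) and kept those with at most 1 mismatch. What they deposited for each library is an FPKM per gene. The TopHat2 version, the program behind the FPKM values and its annotation are not given in the sources used here. The labels gave the groups and named no batch. Identifiers were matched to symbols for 17090 of 17193 rows. Positions, exonic lengths and transcript sequences came from GENCODE M21 (GRCm38), which need not be the annotation of the authors.

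The tables hold no counts. Depth was estimated from the low values of genes with 1 transcript of at least 2000 nucleotides. At the estimated depth, 57.6% to 66.9% of these values per library fell within 0.1 of a whole number of fragments. By chance 20% would do so at a depth fixed beforehand. The depth was fitted to these same values, so this share is not an independent check of it. All pairs of libraries differed in their values.

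Tests used limma 3.58.1 in R 4.3.3 (lmFit, eBayes with trend, two-sided, Benjamini-Hochberg over the 12255 genes averaging 1 FPKM or more, threshold 0.05) on log2(FPKM + 1), a scale that understates changes of low genes. Both groups shared 1 estimate of the spread. Shares were compared by two-sided exact permutation tests. The length correction was a loess (span 0.3) of each library's deviations on log2 exonic length. Alternatives were a pseudocount of 0.1, other filters and scalings, a replicate block, other eBayes settings and omission of each library. The members and lists were chosen with earlier results of these data known. Named were the 7 members, the other mitochondrial protein genes, 6 nuclear core complex I genes (a further gene of that list is not reported here), Mtpap as the one called gene of its list with Polrmt, Tfam, Lrpprc and Slirp, and the 5 nuclear genes of highest r. Cell type markers were taken from a list for each type, with Hbb-bs and Hba-a1 not analysed here and Alas2, the remaining blood marker, at most 0.0106 FPKM. Sequences were handled with biopython 1.88, tables with pandas 2.3.3, numpy 2.4.6 and scipy 1.17.1 under Python 3.11.15, and plots with matplotlib 3.10.9.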

Additional observations from a re-analysis of the deposited data

How the results depend on the processing

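The 7 members were higher after quinpirole in every fit, and their calls depended on the fit. Of 126 fold changes under alternatives, 67 kept their side of the threshold, 58 lost it and 1 gained it (mt-Nd3 without Mock 3), with 0 reversed. Against 6 members and 1339 genes called, there were 3 and 633 without a filter on low values, 3 and 535 with the length correction, 2 and 783 with quantile normalization, and 714 genes with eBayes without trend. The number of members was 3 on the TPM scale and 3 with scaling to the sum of other genes, and the share of calls that were higher went from 52.6% to 15.1% and 18.4%, and to 36.1% with quantile normalization. Omitting each library gave 0 to 7 members and 3 to 1215 genes, lowest without Mock 2. Leave-one-out fits gave 0 to 1 mitochondrial gene expression genes and 1 to 2 members with separated shares. The share count was 2 with fragment shares. For mitochondrial gene expression genes the count was 0 with no filter, 3 with a minimum mean of 5 FPKM (2 higher and Polrmt lower) and 0 with median ratio scaling, and the 1 call was lower, for Polrmt, on the TPM scale and with scaling to the sum of other genes. Of the 6 nuclear core complex I genes compared, 0 were called by limma in each fit, with 0 to 3 at an unadjusted p under 0.05. For all of these shifts the cause was not tested.

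The labels do not say whether the replicate numbers pair the libraries. Deviations of same-numbered libraries correlated at -0.10 to 0.03 and those of differently numbered libraries at -0.10 to 0.15, which cannot settle it. A block on these numbers leaves fewer residual degrees of freedom. A fit with the replicate block called 0 of 7 members, with adjusted p of 0.0802 to 0.0928, 2 genes in all (3308 at an unadjusted p under 0.05) and 0 mitochondrial gene expression genes. The block with the length correction called 0 members, 0 genes (2738 at an unadjusted p under 0.05) and 0 mitochondrial gene expression genes. Members with block had an unadjusted p under 0.05 in 7 of 7, and in 4 of 7 with the length correction as well. Depth limits mt-Nd3 most, at 929 to 1300 estimated fragments.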
